A study of Rattus norvegicus with 12 samples.

Results

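Phospholipase C (PLC) enzymes cut the membrane lipid PIP2 into the soluble messenger IP3, which opens calcium channels of the sarcoplasmic reticulum, and diacylglycerol, which activates protein kinase C. In heart muscle the angiotensin II (AngII) type 1 receptor acts through Gq proteins on the PLC beta isoforms, while PLC gamma enzymes are switched on by tyrosine kinases, PLC epsilon by small GTPases of the Ras family, and PLC delta isoforms by calcium. The 9 genes described are 3 of the delta class (Plcd4, Plcd1, Plcd3), 3 of the beta class (Plcb1, Plcb3, Plcb4), 2 of the gamma class (Plcg1, Plcg2) and Plce1, taken as every probe whose transcript accession maps to one of these symbols. They have 12 of the 30367 probes of the array, and all 12 were among the 20020 probes tested. The 9 genes stand among 11211 genes with a tested probe and 15715 with any probe. The set was chosen by measured values: Plcd4 had the smallest p of all probes with AngII on normal sodium, and the question was whether other isoforms share its pattern. What Plcd4 does there, and in every comparison that shares those arrays, is therefore given as a description with no test.

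RNA from the left ventricle of male Sprague-Dawley rats was hybridised to 1-colour arrays, 3 in each of 4 groups. Every group had been fed 60% fructose during 8 weeks, so no fructose-free group is used here. The groups were low sodium with AngII, low sodium, normal sodium with AngII and normal sodium: the low sodium diet held less than 0.01% NaCl, the normal one 0.64%, and AngII was given by subcutaneous infusion (200 ng/kg/min) during the final 4 weeks. The labels name 40 rats per diet without saying how those for the arrays were picked, and give neither pooling nor age, so p-values measure the spread between these arrays. Each of 3 slides carried 1 array per group under one replicate number, with the groups in fixed positions, so position and group cannot be told apart.

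The 75th percentile of the signal was 1399 to 1988 intensity units per array, and arrays correlated across probes at Pearson's r of 0.980 to 0.992 within a group and 0.977 to 0.993 between groups. All 7 cardiomyocyte markers were tested, and their median log2 change lay between -0.09 and 0.06 in the 4 comparisons of single groups. Other marker lists did move: with AngII on normal sodium, 5 of 11 smooth muscle and pericyte markers (median 0.45), 4 of 6 red cell markers (median 0.83) and 3 of 9 fibroblast markers (median 0.21) had an unadjusted p under 0.05. With low sodium under AngII, 5 of 10 macrophage and monocyte markers (median -0.48) and 5 of 9 fibroblast markers (median -0.37) did. So did 4 of 9 endothelial markers (median -0.33) and 3 of 6 red cell markers (median -0.41). Of 7 listed adipocyte markers 2 were tested (Fabp4 and Cfd), and 2 of 2 did (median -0.35). Adipoq, Plin1, Cidec, Lep and Plin4 were not tested, so the list says little of adipocytes. The share of all genes was 7.95% with AngII on normal sodium and 12.4% with low sodium under AngII. Lists also moved for low sodium without AngII, where the share was 7.79%. There 3 of 11 smooth muscle and pericyte (median 0.25), 3 of 10 macrophage and monocyte (median -0.33) and 3 of 9 fibroblast markers (median -0.28) passed. So did 3 of 9 endothelial (median -0.29) and 2 of 6 red cell markers (median 0.40). The mean scaled log2 level of the tested smooth muscle markers was 0.37 to 0.78 on normal sodium with AngII, against -0.20 to 0.18 on normal sodium. It was 0.31 to 0.51 on low sodium and 0.05 to 0.56 on low sodium with AngII, so uninfused normal sodium was the lowest group. The mean level of the red cell markers was 4.44 to 4.91 on normal sodium with AngII, against 3.54 to 4.49 on normal sodium. On low sodium with AngII the red cell markers were at 4.19 to 4.45. That of the macrophage markers was -2.93 to -2.70 on low sodium with AngII, against -2.39 to -2.37 on normal sodium with AngII. Without AngII it was -3.25 to -2.61 on low sodium and -2.61 to -2.32 on normal sodium. All listed smooth muscle and macrophage markers were tested, while the fibroblast marker Dpt and the endothelial marker Egfl7 were not. The part of these markers in the results below was not tested, and in a whole ventricle fewer cells of a type and less RNA per cell cannot be told apart.

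The promoters of Plcd4 and Plcd1 are shown because these 2 genes of the same delta class differed in direction with AngII on normal sodium. They cover 250 bases before to 50 after the annotated start (RefSeq, GRCr8), at chr9:83566014-83566313 on the plus strand and chr8:127695890-127696189 on the minus strand. Capitals mark GGAAA, the core letters recognised by NFAT factors, on either strand.
Plcd4: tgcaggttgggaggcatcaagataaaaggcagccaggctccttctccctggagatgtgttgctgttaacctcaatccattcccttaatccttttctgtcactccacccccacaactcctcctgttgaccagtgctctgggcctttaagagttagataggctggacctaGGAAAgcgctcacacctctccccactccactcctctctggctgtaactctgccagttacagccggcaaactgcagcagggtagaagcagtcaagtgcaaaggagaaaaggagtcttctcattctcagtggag
Plcd1: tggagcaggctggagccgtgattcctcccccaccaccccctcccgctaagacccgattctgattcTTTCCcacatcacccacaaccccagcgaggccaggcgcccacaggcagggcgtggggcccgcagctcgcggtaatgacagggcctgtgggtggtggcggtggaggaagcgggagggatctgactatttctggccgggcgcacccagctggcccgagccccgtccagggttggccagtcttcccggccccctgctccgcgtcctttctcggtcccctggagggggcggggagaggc
Each window held GGAAA at 1 position, as did 62.7% of 33469 rat promoters at one position or more. Both also held 1 E-box (CANNTG, in 72.1% of promoters), and neither held TGACTCA, the AP-1 letters (4.63%), or TATAAA (14.2%); both strands were searched. GGGCGG, the SP1 box, was in Plcd1 at 1 position but not in Plcd4 (33.1%). The Plcd4 window was 52.0% G and C with 2 CpG dinucleotides, and the Plcd1 window 69.3% with 20, against medians of 51.7% and 7 over all promoters. Of the 9 genes, 8 had an entry in the table, and the 7 other than Plcd4 had 19 to 55 CpG dinucleotides. These matches describe letters only and say nothing of factors bound in these hearts.

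Plcd4, a calcium-sensitive delta isoform known in mouse for its part in the sperm acrosome reaction, was low only on the 3 arrays of normal sodium with AngII. Values are the log2 of the processed signal minus the log2 of the array's 75th percentile, so 0 marks that percentile. Its brighter probe (A_64_P139485) stood at -3.54, -3.90 and -3.93 on normal sodium with AngII, against -2.34, -2.43 and -2.62 on normal sodium. The same probe stood at -2.57, -2.51 and -2.16 on low sodium with AngII, against -2.46, -2.71 and -2.67 on low sodium. The 3 infused normal sodium arrays lay below all 9 others, which overlapped one another. Of all tested probes, 1.34% had these 3 arrays below all others and 1.81% had them above, figures that give scale and support nothing, since this contrast chose the gene.

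Plcd4 was 2.50-fold lower with AngII on normal sodium (log2 -1.32 ± 0.15, limma standard error, n = 3 arrays per group). Its second probe (A_64_P059491) stood at -3.65, -4.02 and -3.84 on normal sodium with AngII, against -2.27, -2.41 and -2.66 on normal sodium, and was 2.61-fold lower (log2 -1.39 ± 0.17). The processed signal of the brighter probe was 110 to 156 intensity units on normal sodium with AngII and 275 to 295 on normal sodium. Both probes were well above background on all 12 arrays and saturated on none. They target the same transcript and followed each other at r = 0.992 over the 12 arrays, and at 0.939 over the 9 arrays outside the low group.

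Within slides 1, 2 and 3 the AngII difference on normal sodium was -1.19, -1.46 and -1.31 for the brighter probe. It was -1.37, -1.61 and -1.18 for the second. These values describe the contrast that chose Plcd4, and a small spread between arrays was part of that choice. Across the alternative settings the brighter probe ranged between -1.45 and -1.08, the smallest size coming after normexp background correction.

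On low sodium the AngII difference was not the one that chose Plcd4, so it was tested, and no change was detected. The standard error is shared by all 12 arrays of the fit, so these arrays entered the choice through the spread, though not through their means. The log2 change with AngII was 0.20 ± 0.15 for the brighter probe (95% interval -0.14 to 0.54, limma adjusted p = 1 over all probes, unadjusted p = 0.219). For the second probe it was 0.17 ± 0.17 (95% interval -0.20 to 0.55, limma unadjusted p = 0.332). The slides gave -0.11, 0.20 and 0.51, and the 2 groups overlapped.

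The diet comparisons reuse the same arrays and are descriptions for Plcd4. Under AngII the brighter probe was 2.59-fold higher on low sodium than on normal sodium (log2 1.37 ± 0.15), and the slides gave 0.97, 1.39 and 1.76. Without AngII its log2 change on low sodium was -0.15 ± 0.15, with slide values of -0.11, -0.28 and -0.05. The interaction (low sodium AngII effect less the normal sodium one) was 1.52 ± 0.22 and 1.56 ± 0.24 for the 2 probes.

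**Figure D1:**
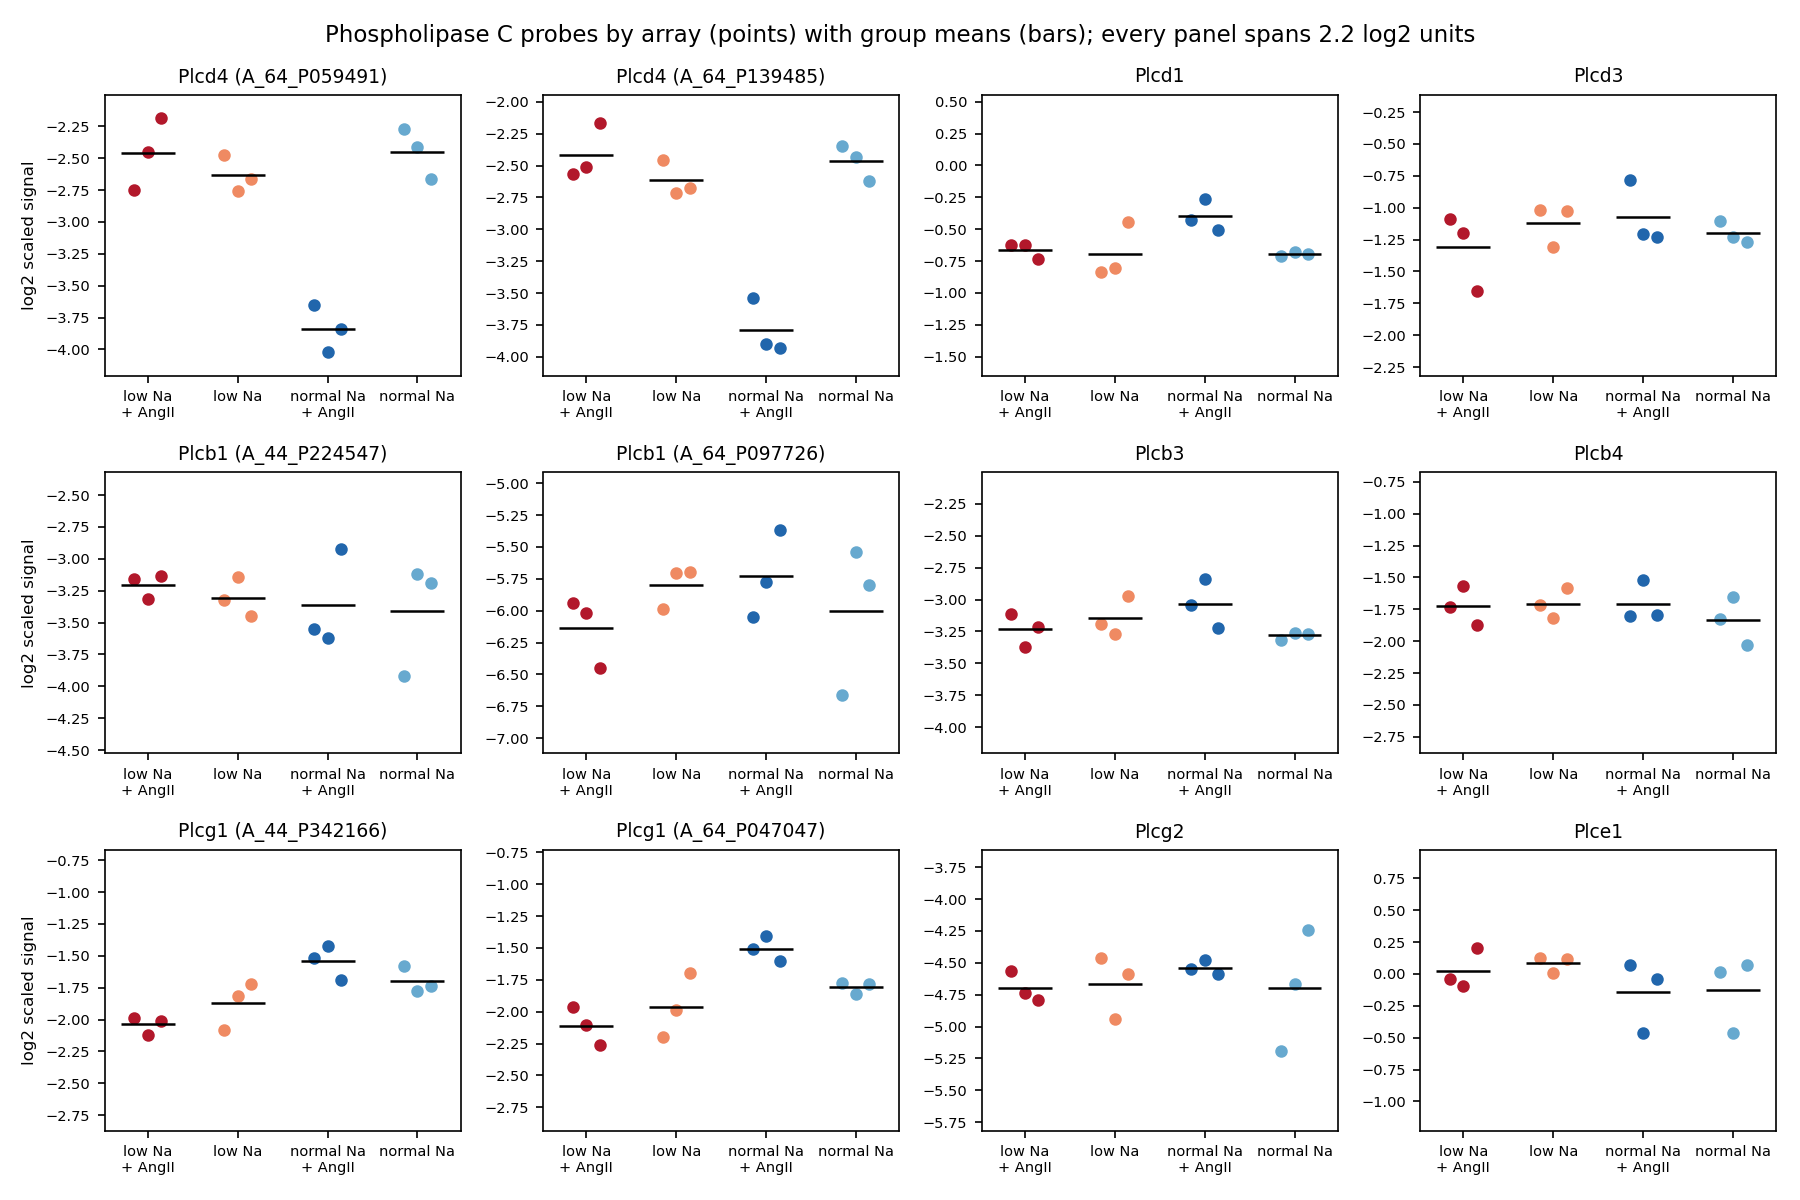
Scaled log2 signal (vertical axis) of each of the 12 phospholipase C probes on each of the 12 arrays, by group; points are arrays, bars are means of 3 arrays, and every panel has the same span. The 3 dark blue points of normal sodium with AngII lie below all others in both Plcd4 panels and in no other panel.

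No other isoform had the 3 arrays of normal sodium with AngII below all others. With AngII on normal sodium, 7 of the other 8 genes were above 0 (each valued by its brightest probe), with values between -0.02 and 0.30 and a median of 0.14, against a median of 0.02 and 52.7% above 0 over all 11211 genes. At an unadjusted p under 0.05 there was 1 of these 8, Plcd1, where 7.26% of all probes passed (4.24% higher) and 7.95% of all genes. A count of 1 in 8 is too small to be told from those shares. The limma fit called 0 of 20020 probes at an adjusted p of 0.05, or 0% for all 7 contrasts, against 1453 probes at an unadjusted p under 0.05 here. The comparisons share arrays, so their values are set side by side and not counted as separate evidence.

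Plcd1, a delta isoform found in many tissues, stood at -0.43, -0.26 and -0.50 on normal sodium with AngII, against -0.71, -0.68 and -0.70 on normal sodium. The groups did not overlap, as for 13% of all probes. Its log2 change was 0.30 ± 0.12 (1.23-fold, unadjusted p = 0.0362, limma adjusted p = 0.669), and with the slide as a block the unadjusted p was 0.0565. Without any 1 of the normal sodium arrays, or without replicate 1 or 2 of normal sodium with AngII, 0 of the 8 genes had an unadjusted p under 0.05. On low sodium it stood at -0.62, -0.63 and -0.74 with AngII, against -0.83, -0.80 and -0.44 without, a log2 change of 0.03 ± 0.12. Under AngII the low sodium arrays were all below the normal sodium ones (log2 -0.26 ± 0.12, limma unadjusted p = 0.0563), where 22.2% of probes did not overlap.

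Plcd3, the remaining delta isoform, had log2 changes with AngII of -0.19 ± 0.17 on low sodium and 0.13 ± 0.17 on normal sodium. Its low sodium effect was -0.24 ± 0.17 under AngII and 0.08 ± 0.17 without it. The groups overlapped in all 4 comparisons.

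The beta isoforms, the direct effectors of Gq in the AngII pathway, were not called in any comparison. Plcb3 stood at -3.04, -2.84 and -3.22 on normal sodium with AngII, against -3.31, -3.26 and -3.27 on normal sodium. Its groups did not overlap there, as for 13% of all probes. Its log2 change was 0.25 ± 0.13 there (limma unadjusted p = 0.0846, adjusted p = 0.672) and -0.09 ± 0.13 on low sodium. Plcb4 differed by 0.13 ± 0.14 with AngII on normal sodium and by -0.02 ± 0.14 on low sodium.

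Plcb1, a beta isoform studied in the growth of rat heart muscle cells, had 2 probes that went apart. The brighter (A_44_P224547) had log2 changes with AngII of 0.10 ± 0.23 on low sodium and 0.04 ± 0.23 on normal sodium. The dimmer (A_64_P097726) gave -0.34 ± 0.28 and 0.27 ± 0.28 in the same order, and was well above background on 11 of 12 arrays. Replicate 1 of normal sodium was the lowest of all arrays on both probes, at -3.92 and -6.66. The same array carried 88 spots flagged non-uniform, where the remaining 11 had at most 3.

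Plcg1, the gamma isoform found in most cells and driven by growth factor receptors, was the member with the clearest diet difference apart from Plcd4, and it ran the other way. Its brighter probe (A_44_P342166, printed 10 times on each array) stood at -1.99, -2.12 and -2.01 on low sodium with AngII, against -1.52, -1.42 and -1.69 on normal sodium with AngII. The other probe (A_64_P047047) stood at -1.96, -2.11 and -2.26 on low sodium with AngII, against -1.51, -1.41 and -1.60 on normal sodium with AngII. Neither probe overlapped between these groups, as for 22.2% of all tested probes.

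Under AngII, Plcg1 was 1.41-fold lower on low sodium than on normal sodium by the brighter probe (log2 -0.49 ± 0.12, unadjusted p = 0.00241, limma adjusted p = 0.293). By the other it was 1.52-fold lower (log2 -0.60 ± 0.14, unadjusted p = 0.0012, limma adjusted p = 0.28). Neither passed the adjusted threshold. At an unadjusted p under 0.05 this comparison held 11.1% of all probes, and 7.41% of all probes were lower. Slide differences were -0.47, -0.70 and -0.32 for the brighter probe and -0.45, -0.70 and -0.66 for the other. Without slide 2 the brighter probe was at -0.39, and 0 of the 8 genes had an unadjusted p under 0.05. With array weights both probes passed, at adjusted p of 0.0286 and 0.0269, but so did 842 of 20020 probes there, and 1 low sodium with AngII array (replicate 2) then had a weight of 5.91.

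Without AngII, Plcg1 had low sodium effects of -0.17 ± 0.12 and -0.15 ± 0.14 by the 2 probes, with overlapping groups. The mean low sodium effect over both infusion states was -0.33 ± 0.09 (unadjusted p = 0.00326, limma adjusted p = 0.18) and -0.38 ± 0.10 (unadjusted p = 0.00276, limma adjusted p = 0.17), where 12.5% of all probes had an unadjusted p under 0.05. With AngII on normal sodium the second probe had all 3 infused arrays above the 9 others, as had 1.81% of all probes. Its log2 change was 0.30 ± 0.14 (limma unadjusted p = 0.0507), and that of the brighter probe 0.15 ± 0.12. The interaction had an unadjusted p of 0.0416 by the second probe (log2 -0.45 ± 0.20, limma adjusted p = 0.857) and 0.0975 by the brighter one; 5.06% of probes passed 0.05 there. With the slide as a block the second probe's interaction had an unadjusted p of 0.0639.

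Plcg2, the gamma isoform of blood cells, was dim, at -5.19 to -4.24 over the 12 arrays. Its log2 change with AngII was -0.03 ± 0.21 on low sodium and 0.16 ± 0.21 on normal sodium. Plce1, the Ras-linked epsilon isoform, differed with AngII by -0.06 ± 0.18 on low sodium and by -0.02 ± 0.18 on normal sodium. Apart from Plcd4, Plce1 and the brighter Plcb1 probe were the members above 0 for low sodium under AngII (0.17 ± 0.18 for Plce1), and the Plce1 groups overlapped throughout.

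**Figure D2:**
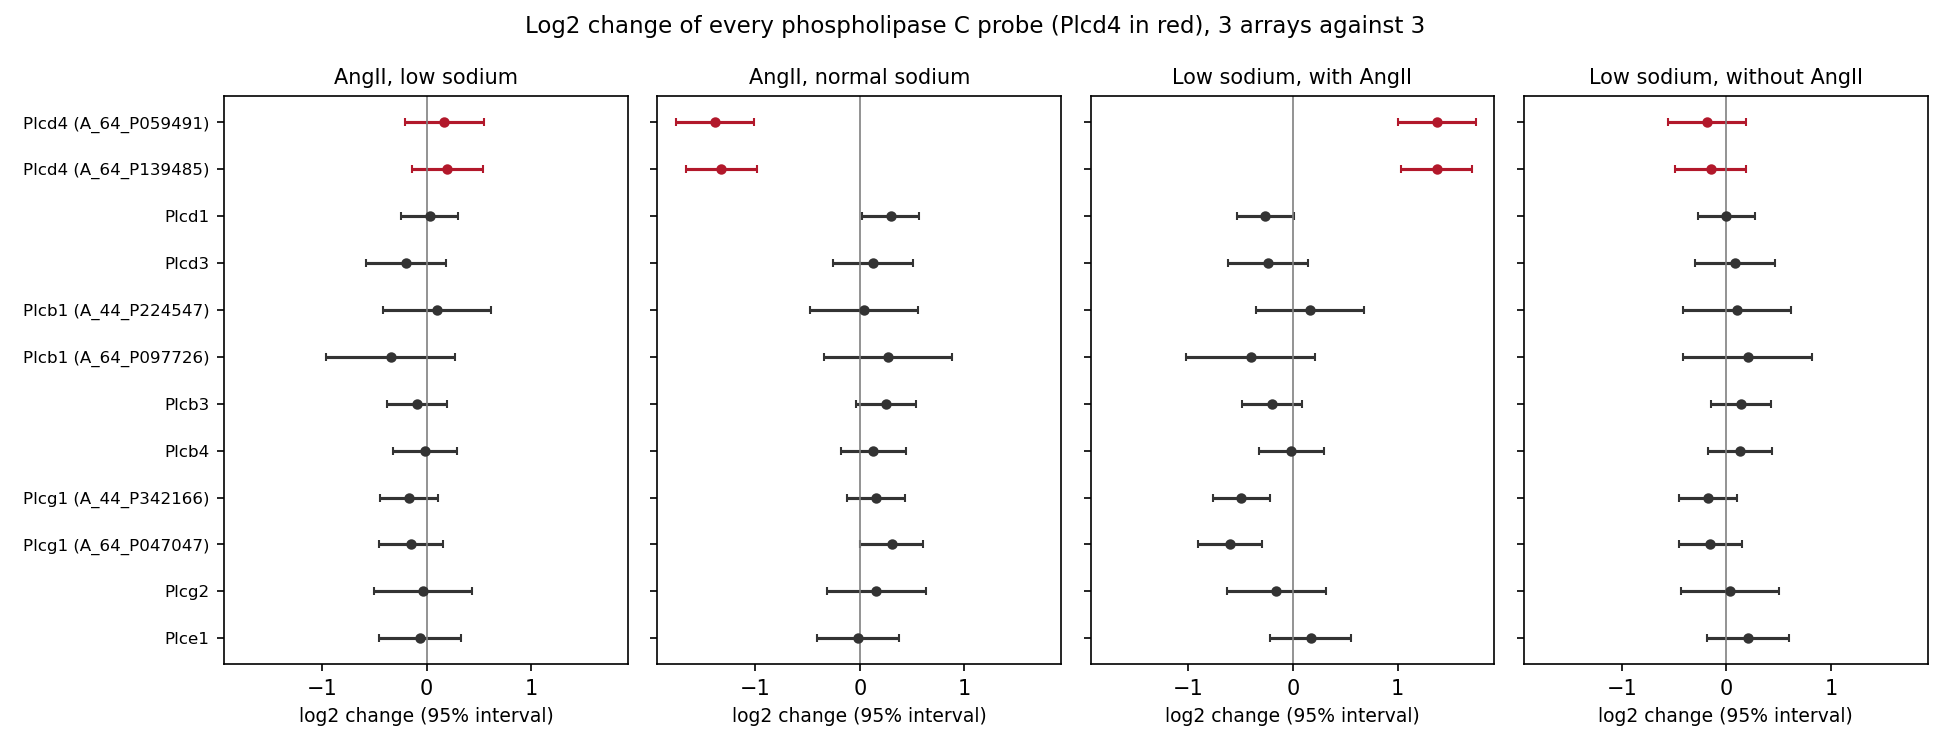
Log2 change (horizontal axis) with its 95% interval for each phospholipase C probe in 4 comparisons of 3 arrays against 3; red marks Plcd4. Plcd4 was chosen on the normal sodium arrays with and without AngII. Its place in every panel except AngII on low sodium is therefore a description. The 8 other genes lie between -0.02 and 0.30 by their brightest probes with AngII on normal sodium.

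Plcd4 was also set against each isoform in its AngII change on low sodium. With 3 arrays against 3 the smallest p this test can give is 0.1, so it could show no difference at 0.05. The Plcd4 change minus the isoform's change was 0.10 to 0.40 on the log2 scale for the 8 genes, with exact two-sided permutation p between 0.1 and 0.6 (adjusted over the 8 pairs 0.571 to 0.6). Plce1 alone reached the smallest p. On normal sodium the same difference was -1.62 for Plcd1 and -1.31 for Plce1, the extremes of the 8, a description that follows from how Plcd4 was picked.

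On low sodium 2 of the other 8 genes were above 0 with AngII and the median was -0.05, against 45.7% and -0.01 over all genes. There 0 had an unadjusted p under 0.05 (limma, 0 at adjusted p of 0.05, background 1.71% of probes). For low sodium without AngII 7 of 8 were above 0 with a median of 0.09, against 46.9% and -0.02 over all genes. In that comparison 0 passed (background 7.03%). For low sodium under AngII 6 of 8 were below 0 with a median of -0.18, and Plcg1 alone had an unadjusted p under 0.05 (background 11.1% of probes). The count by p is near the share of all genes, of which 12.4% had an unadjusted p under 0.05. Over all genes 42.6% were above 0, with a median of -0.05. The signs of the 8 genes were not tested as a set.

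**Figure D3:**
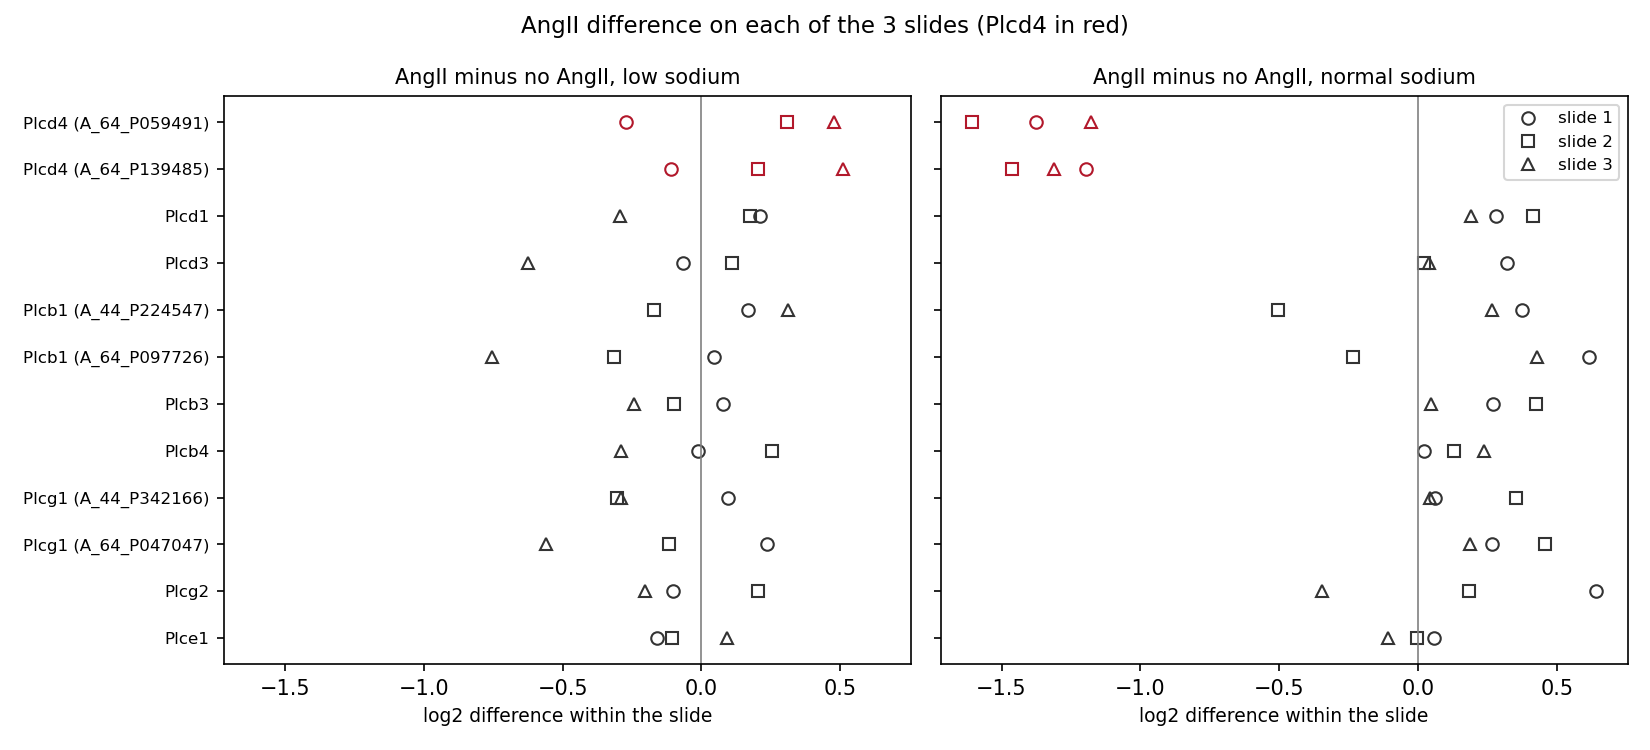
AngII minus no AngII within each slide (horizontal axis, log2), for low sodium on the left and normal sodium on the right; circles, squares and triangles are slides 1, 2 and 3, and red marks Plcd4. All 6 Plcd4 points on normal sodium lie between -1.61 and -1.18, and no point of another gene lies below -0.51 there.

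Of 6 PLC genes outside the 9, Plch2 had no probe and Plch1 and Plcz1 were well above background on none of the 12 arrays. Plcb2 was near background (9 of 12 arrays) at 0.15 ± 0.37 with AngII on normal sodium. Plcl1, a PLC-like protein without enzyme activity, stood at -2.90, -3.11 and -2.57 on low sodium with AngII, against -3.48, -3.25 and -3.50 on low sodium, without overlap (6.12% of probes). Its log2 change was 0.55 ± 0.17 (unadjusted p = 0.00829, limma adjusted p = 1), and 0.29 by its dimmer probe. Under AngII the brighter Plcl1 probe was higher on low sodium, as was Plcd4 (log2 0.56 ± 0.17, limma unadjusted p = 0.00744, adjusted p = 0.305). Those groups did not overlap, as for 22.2% of probes. The interaction of this probe was 0.67 ± 0.24 (limma unadjusted p = 0.0187, adjusted p = 0.857). In the same order the dimmer probe gave -0.06 ± 0.19 and 0.035 ± 0.26, so the probes went apart. Plcl2 was at 0.30 ± 0.14 with AngII on normal sodium (limma unadjusted p = 0.0556).

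On the chromosome the genes next to Plcd4 in RefSeq had smaller values. Zfp142, a zinc finger gene that overlaps Plcd4, had a log2 change with AngII on normal sodium of -0.13 ± 0.13. Bcs1l, a respiratory complex assembly factor, was at 0.08 ± 0.18. Cnot9, a subunit of the CCR4-NOT complex, was at 0.29 ± 0.21 and 0.04 ± 0.11 by 2 probes, and Usp37, which also overlaps, had no probe matched here.

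Genes whose level followed Plcd4 over the 12 arrays were sought among 11166 genes, as a description. The highest Pearson correlations belonged to Zfp654 (0.917), the cation channel gene Trpc1 (0.903), Emc9 (0.902), the cyclophilin gene Ppid (0.897) and Dhrs7c, a sarcoplasmic reticulum gene (0.891). The lowest were Ccdc102a (-0.901), Klhdc8b (-0.894) and the sodium-potassium-chloride cotransporter gene Slc12a2 (-0.893). These rest in part on the 3 low arrays: over the other 9, Ppid was at 0.883 and Zfp654 at 0.780, but Trpc1 at 0.301 and Dhrs7c at -0.163. After group means were removed, Acaa1a, Egfl6, Nif3l1, Dapk1 and Fhl4 came first, at 0.936, 0.916, 0.913, 0.902 and 0.900.

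Among the PLC members the correlation with Plcd4 over the 12 arrays was -0.775 for Plcd1 and -0.653 and -0.807 for the 2 Plcg1 probes, and 0.343 for Plce1. Over the 9 arrays outside normal sodium with AngII they were -0.299, -0.189, -0.493 and 0.072. Plcb3 went from -0.560 over the 12 arrays to -0.278 over the 9. Plcd3 and the dimmer Plcb1 probe went the other way, from -0.305 to -0.508 and from -0.497 to -0.727. All points share array scaling and slides.

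Around PLC, 204 genes of the pathway were listed, 188 were on the array and 171 passed the filter. With AngII on normal sodium 10 were higher and 4 lower at an unadjusted p under 0.05, together 8.19%, against 7.95% of all genes, with a median of 0.09. With low sodium under AngII 6 were higher and 27 lower, together 19.3%, against 12.4% of all genes, with a median of -0.15 against -0.05. With AngII on low sodium 5 were higher and 0 lower (2.92%, against 1.78% of all genes). For low sodium without AngII 4 were higher and 11 lower (8.77%, against 7.79% of all genes). The limma adjusted call was 0 in each.

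Upstream of PLC, 0 of 19 Gq-coupled receptors passed an unadjusted p of 0.05 with AngII on normal sodium. With low sodium under AngII 1 was higher and 3 lower, together 21.1%, against 12.4% of all genes. The lower ones include Tbxa2r, the thromboxane receptor, at -0.90 ± 0.27, and P2ry6, a nucleotide receptor, at -0.44 ± 0.13 (limma adjusted p = 0.302 each). Of 18 Gq proteins and regulators, 4 were lower in the same comparison and none higher (22.2%, against the same 12.4%), with the Gq family gene Gna15 at -0.77 ± 0.19 and Gnb1, a G protein beta subunit, at -0.35 ± 0.09 (limma adjusted p = 0.293 each). Gna15 was at 0.0425 in the authors' own values, the opposite sign. Low sodium changes without AngII were -0.54 ± 0.19 for Gna15 and -0.21 ± 0.09 for Gnb1. They were -0.34 for P2ry6 and -0.49 for Tbxa2r. Gna14, another Gq family gene, had the largest AngII change on low sodium of the named pathway genes, 1.89 ± 0.51 (limma adjusted p = 1). It stood at -4.29, -5.83 and -3.85 on low sodium with AngII, against -7.18, -6.06 and -6.41 on low sodium. Gna14 was near background, and was well above it on 11 of 12 arrays. The value of -7.18 lay under the lowest level well above background on its array, -6.85. After normexp the change was 0.85.

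Downstream, the diacylglycerol lipase gene Dagla stood at -0.43 ± 0.14 with AngII on normal sodium, Pld2, a phospholipase D, at 0.68 ± 0.23 and the diacylglycerol kinase gene Dgka at 0.43 ± 0.16. Their limma adjusted p was 0.669 each. Of the 12 tested genes of their list, 2 were higher and 1 lower at an unadjusted p under 0.05 (25%, against 7.95% of all genes). Among IP3 receptors and calcium entry channels, Trpc1 was at -0.35 ± 0.11, with -0.68, -0.94 and -0.77 on normal sodium with AngII, against -0.37, -0.50 and -0.48 on normal sodium. Trpc6 and Itpr2, an IP3 receptor of heart muscle, were at 0.45 ± 0.19 and 0.60 ± 0.26. Under AngII, Trpc1 was at 0.43 ± 0.11 on low sodium and Trpc6 at -0.65 ± 0.19. Trpc1 thus stood with Plcd4 in sign in both, and Trpc6 opposite, but both comparisons share the normal sodium with AngII arrays. Their limma adjusted p was 0.669 on normal sodium (also for Itpr2), and 0.293 and 0.297 under AngII. Of 23 tested genes of this list, 2 were higher and 1 lower with AngII on normal sodium (13%, against 7.95% of all genes, unadjusted p under 0.05). With low sodium under AngII 2 were higher and 5 lower (30.4%, against 12.4%).

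Of the partners of PLC gamma, 29 were tested, and under AngII 22 were below 0 on low sodium, with a median of -0.23. Over all genes 42.6% were above 0, with a median of -0.05. Of the 29, 1 was higher and 3 were lower by an unadjusted p under 0.05, together 13.8%, near the 12.4% of all genes. The lower ones include the PDGF receptor gene Pdgfrb at -0.46 ± 0.15 and the Src family kinase gene Fyn at -0.63 ± 0.20 (limma adjusted p = 0.32 and 0.323). Pdgfrb is also a pericyte marker. Calcineurin and NFAT genes showed a median of -0.03 over 22, with the calmodulin gene Calm2 at 0.49 ± 0.14 and Rcan1, a calcineurin inhibitor that NFAT induces, at -0.60 ± 0.22. Of the 22, only these had an unadjusted p under 0.05, 1 higher and 1 lower. That is 9.09%, against 12.4% of all genes. Protein kinase C and diacylglycerol targets had 16 of 18 below 0 with a median of -0.21, in a comparison where most of all genes were not above 0, and 3 were lower at an unadjusted p under 0.05 (16.7%). Among them were Prkcb at -0.53 ± 0.18 and the kinase substrate gene Marcksl1 at -0.88 ± 0.26. Without AngII their low sodium changes were -0.38 for Prkcb and -0.85 ± 0.26 for Marcksl1.

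**Figure D4:**
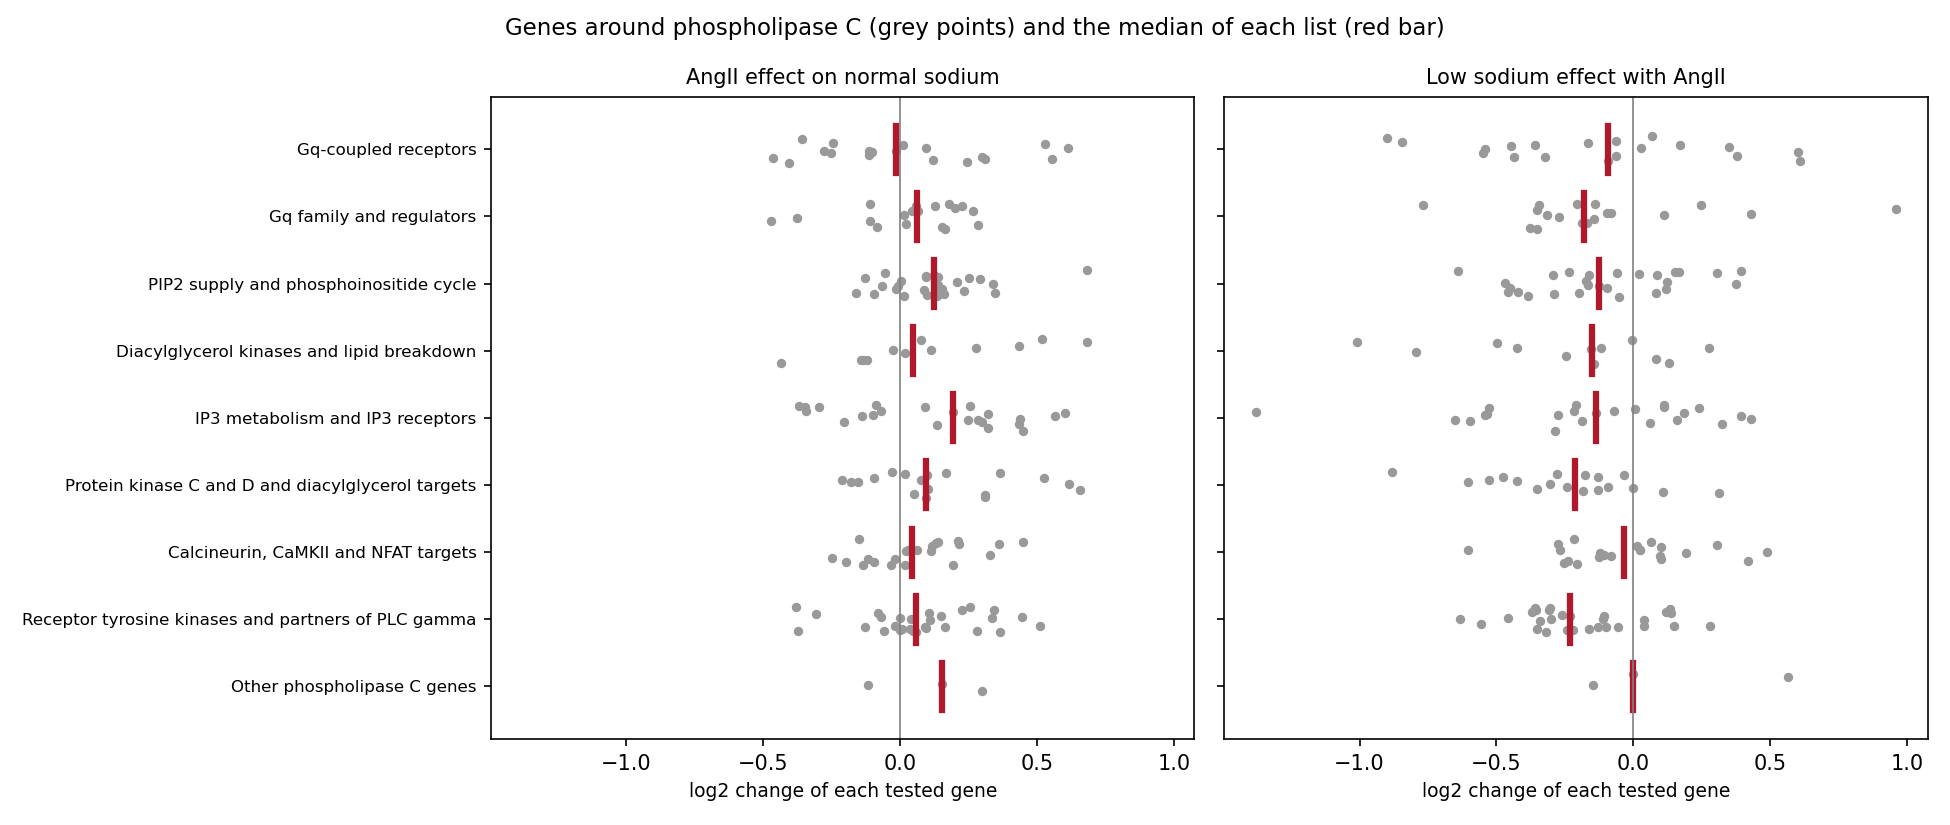
Log2 change (horizontal axis) of each tested gene in 9 lists around phospholipase C, with AngII on normal sodium on the left and low sodium under AngII on the right; grey points are genes and red bars list medians. The medians lie between -0.01 and 0.19 on the left and between -0.23 and -0.00 on the right.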

How the data were processed

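Scanner files were deposited as 1-colour intensity values, per the file headers from Agilent Feature Extraction 10.7.3.1, while the submitters' processing notes name version 11.0.1.1, R and limma. The authors also deposited a log2 matrix of 20438 probes, used here as an alternative, whose normalization is not given in the sources used here. Control and outlier-flagged spots were left out, processed signals were divided by each array's 75th percentile over all non-control spots, log2 was taken and spots of a probe were averaged. A probe was tested when at least 0.5 of its spots were well above background on all 3 arrays of a group. Symbols came from RefSeq accessions (GRCr8): 18758 of 30367 probes had 1. One limma 3.58.1 model (R 4.3.3) with 4 group means, Benjamini-Hochberg adjusted over 20020 probes, gave 7 contrasts; it was checked on simulated data. Where 1 value per gene is given, it is that of the brightest tested probe.

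The members, gene lists, markers, alternatives and naming rule were chosen with earlier results of these data known. Named were all member probes, per list up to 4 genes with the smallest p with AngII on normal sodium and 2 in each other contrast, 6 other PLC genes, 2 neighbours a side and the genes most like Plcd4. Alternatives were normexp (offset 50), quantile scaling, the authors' values, other filters, array weights, a slide block, probe means and leaving out each array. Leaving out each slide and a variance trend were chosen after seeing the data. The headers show that replicate number and slide are one factor; residuals of same-numbered arrays correlated above 0.1 in 17 of 18 pairs (0.0469 to 0.432).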

Additional observations from a re-analysis of the deposited data

Results flagged for a closer look

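The low sodium effect on Plcd4 ran in opposite directions on all 3 slides without and with AngII, by both probes. With AngII the slides gave 0.97, 1.39 and 1.76 for the brighter probe and 0.90, 1.57 and 1.65 for the second. Without AngII they gave -0.11, -0.28 and -0.05 for the brighter probe and -0.20, -0.34 and -0.00 for the second, values close to 0. The mean slide effect with AngII minus that without was 1.52 and 1.56 on the log2 scale. The difference was not tested, because Plcd4 was chosen on arrays that enter it. Groups of 3 arrays are too small for a check of single outlying arrays.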

How the results depend on the processing

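Over 24 alternatives no Plcd4 value in either AngII comparison or with low sodium under AngII changed sign. With normexp the brighter probe moved to -1.08 with AngII on normal sodium and to 1.06 with low sodium under AngII, where it was 1.58 without slide 1 and 1.18 without slide 3. Leaving out 1 array gave -1.45 to -1.25, 0.08 to 0.28 and 1.25 to 1.50 in the 3 comparisons. The adjusted count among the other 8 members stayed at 0 except with array weights, which gave 1 (Plcg1) for low sodium under AngII and 1 for the mean low sodium effect. Leaving out 1 array gave 0 to 0 for that count. Of 70 values of the other members, 41 of those with unadjusted p at or above 0.05 changed sign somewhere, and 0 of the 6 below it. The number of these 8 with an unadjusted p under 0.05 with AngII on normal sodium was 0 to 2 without 1 array, 0 without slide 1 or 2, without the filter or with the slide as a block, and 2 after normexp. Gna15 turned to 0.0425 in the authors' values with low sodium under AngII. With the replicate block the Plcd4 estimates stayed at -1.32 and 0.20 (unadjusted p = 0.23 by limma on low sodium), and no member passed the adjusted threshold. Plcd4 against each of the 8 isoforms on low sodium was recomputed only with normexp, quantile scaling and the authors' values. It kept its sign in 24 of 24 of these values (0.09 to 0.46), with no array or slide left out. The number of arrays limits the precision of every value.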
